A study of Rattus norvegicus with 6 samples.

Results

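Microtubule-associated proteins are represented here by 10 genes, chosen by gene symbol, out of 16881 gene symbols in 17048 rows of the count tables. They are the structural proteins Map1a, Map1b, Map2, Map4 and Mapt, the doublecortin family genes Dcx and Dclk1, the plus-end binding gene Mapre1, and the stathmins Stmn1 and Stmn2. The tables hold 6 libraries of wild-type rat neural stem/progenitor cells (NSPCs), the precursors from which neurons and glia arise, prepared from embryonic Sprague-Dawley telencephalon and grown as spheroids. The cells were cultured for 24 h in stemness-maintaining medium on laminin-bearing films of carbon nanotubes and graphene oxide nanoribbons, with 2 libraries each for the “High”, “Medium” and “Low” conductive films. Longer oxidation made the “Medium” and “Low” films less conductive, and the study placed both in the range of neural tissue and “High” above it. The study also adjusted the poly-D-lysine coating under the laminin between films, so that the amounts of laminin were comparable. Its sequencing methods do not describe the coating. All 6 libraries share the cell type, the genotype, the medium and the time, no library from an ordinary culture plate was analysed here, and no source used here says whether the 2 libraries of a film came from separate cultures, so that p-values measure the spread between these libraries, which may be technical.

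Microtubules are hollow polymers of alpha and beta tubulin that grow and shrink at their ends. Structural microtubule-associated proteins bind along the lattice and stabilize it, end-binding proteins ride on the growing plus end, and stathmins bind tubulin dimers and favour shrinkage. In the developing brain these proteins shape neurites and the leading process of migrating neurons, and several of them are used as markers of the neuronal lineage, while others are present in dividing cells of most tissues.

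The libraries held 5124863 to 6213676 counts, and 5355 to 7809 rows had a count. They were made with QuantSeq, which reads the 3′ end of polyadenylated transcripts, so that splice forms with a common end are counted together. Rows of ribosomal RNA took 26.09% (95% Wilson interval 26.06% to 26.13%) and 38.38% (38.34% to 38.42%) of the counts in “High”, against 7.16% (7.14% to 7.18%) to 13.0% (13.0% to 13.1%) in the other 4 libraries. These intervals, and the floors given further on, cover counting error only, since PCR copies could not be told from molecules. Of 12 markers of neural stem/progenitor cells, 8 had more than 3 counts in every library, among them Nes, Sox2 and Vim, while Hes5 and Msi1 were at 0 in all 6. Of the 10 progenitor markers tested, 7 lay higher for “Medium” and “Low” as a mean against “High” and 3 lower. Hes1 and Fabp7 did not rise with Nes, Sox2 and Vim. Fabp7 gave 995 and 944 counts on “High” films, 1991 and 952 on “Medium” films and 292 and 706 on “Low” films. Vim held the most counts of the list in every library. Of 14 neuronal markers 6 were at 0 throughout, including Rbfox3, Syt1 and Syp, and 2 had more than 3 counts in every library. Of 8 microglial markers 7 were at 0 throughout. The summed level of the progenitor markers was 3492 and 3791 CPM in “High” and 5115 to 6901 CPM in “Medium” and “Low”, that of the neuronal markers 43.7 and 125 CPM against 184 to 325 CPM, and that of 8 astrocyte markers 701 and 737 CPM against 1001 to 1644 CPM. The neuronal sum came mostly from Elavl4 and Gap43. In “Medium” replicate 1 and “Low” replicate 1 it also held 333 and 176 counts of Celf4, which had none elsewhere. Elavl3 and Snap25 had counts in “High” libraries only, and Tubb3, Nefm and Ina in “Medium” or “Low” libraries only. The astrocyte difference came from Sox9, which the progenitor list also holds: without it the astrocyte sum was 108 and 116 CPM in “High” and 51.4 to 178 CPM in the others, which overlap. Aqp4, Aldh1l1, Gjb6 and Slc1a2 of that list were at 0 throughout. Markers of the oligodendrocyte lineage summed to 179 and 260 CPM in “High” and 264 to 492 CPM in the others, with Sox10 and Mag at 0. In “Medium” replicate 1 that sum included 752 counts of Mog, which had none in any other library. Without Mog the sum there would lie below that of “High” replicate 2, so that the films overlap. Of the 4 oligodendrocyte markers tested, 2 lay higher on “Medium” and “Low” films and 2 lower. Meningeal and vascular markers reached 329 CPM in “Medium” replicate 2, nearly all from Col1a1, against 0 to 35.8 CPM elsewhere. Levels are TMM-normalized CPM throughout, counts brought to a common library size by edgeR's TMM factors, and in such bulk libraries fewer cells of a type and less RNA per cell cannot be told apart.

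Promoter sequences were at hand for 7 of the 10 genes (not for Map4, Mapt and Stmn2), and those of Mapre1, Dclk1 and Stmn1 are shown because the first 2 lay higher in every “Medium” and “Low” library and the third did not. Each holds the 250 bases before the annotated RefSeq start on GRCr8, 5′ to 3′ on the strand of the gene, while the reads had been aligned to rn6. Capitals mark the GC box GGGCGG, the CCAAT box and TATAAA, on either strand.
Mapre1 at chr3:162678820-162679069 (plus strand): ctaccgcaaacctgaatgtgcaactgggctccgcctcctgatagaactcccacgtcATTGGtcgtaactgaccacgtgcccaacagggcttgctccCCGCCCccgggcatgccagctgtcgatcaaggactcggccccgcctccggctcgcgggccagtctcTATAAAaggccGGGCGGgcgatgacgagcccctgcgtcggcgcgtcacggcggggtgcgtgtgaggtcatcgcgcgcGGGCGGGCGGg
Dclk1 at chr2:141782634-141782883 (plus strand): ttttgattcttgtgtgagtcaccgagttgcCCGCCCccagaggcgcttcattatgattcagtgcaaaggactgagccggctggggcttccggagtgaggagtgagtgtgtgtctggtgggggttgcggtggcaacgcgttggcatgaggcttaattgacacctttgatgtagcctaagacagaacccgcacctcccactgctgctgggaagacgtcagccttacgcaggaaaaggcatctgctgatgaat
Stmn1 at chr5:151964929-151965178 (plus strand): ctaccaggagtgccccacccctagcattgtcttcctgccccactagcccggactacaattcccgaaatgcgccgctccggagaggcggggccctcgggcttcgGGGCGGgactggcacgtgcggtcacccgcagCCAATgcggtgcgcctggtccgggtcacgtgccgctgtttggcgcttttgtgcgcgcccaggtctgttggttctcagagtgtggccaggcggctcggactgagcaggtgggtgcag
The Mapre1 window was 68.4% G and C with 30 CG dinucleotides, 4 GGGCGG (a pair of them overlapping), 1 CCAAT and 1 TATAAA. The Stmn1 window had 67.6% and 22 CG dinucleotides with 1 GGGCGG and 1 CCAAT, and the Dclk1 window 55.2% and 11 with 1 GGGCGG, beside a median of 51.2% G and C over all promoters. GGGCGG occurred in 4 of the 7 windows (Map1a, Dclk1, Mapre1 and Stmn1) and in 30.5% of 33469 RefSeq promoter windows of that length. CCAAT occurred in 2 (34% of all) and TATAAA in 3 (Map1b, Dcx and Mapre1, 12.9% of all). The E-box CAGCTG occurred in Mapre1 alone among the 7 (12% of all), CACGTG in Mapre1 and Stmn1 (5.59% of all), and the AP-1 letters TGACTCA in Dclk1 (4.05% of all). These are matches of letters on both strands and not sites shown to be bound. The Map2 window was 32% G and C and held none of the 6 motifs.

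Map4, Dclk1 and Mapre1 were the 3 members whose 4 “Medium” and “Low” libraries all lay above both “High” libraries, Map4 by 5.42-fold between group means, Dclk1 by 2.17-fold and Mapre1 by 1.58-fold. None of the 10 members passed an adjusted p of 0.05 in any comparison of films. Map1b and Stmn1 overlapped between the films, and Map1a, Map2, Mapt, Dcx and Stmn2 were at 0 counts in at least 1 library. The plot of levels by library shows all 10.

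**Figure D1:**
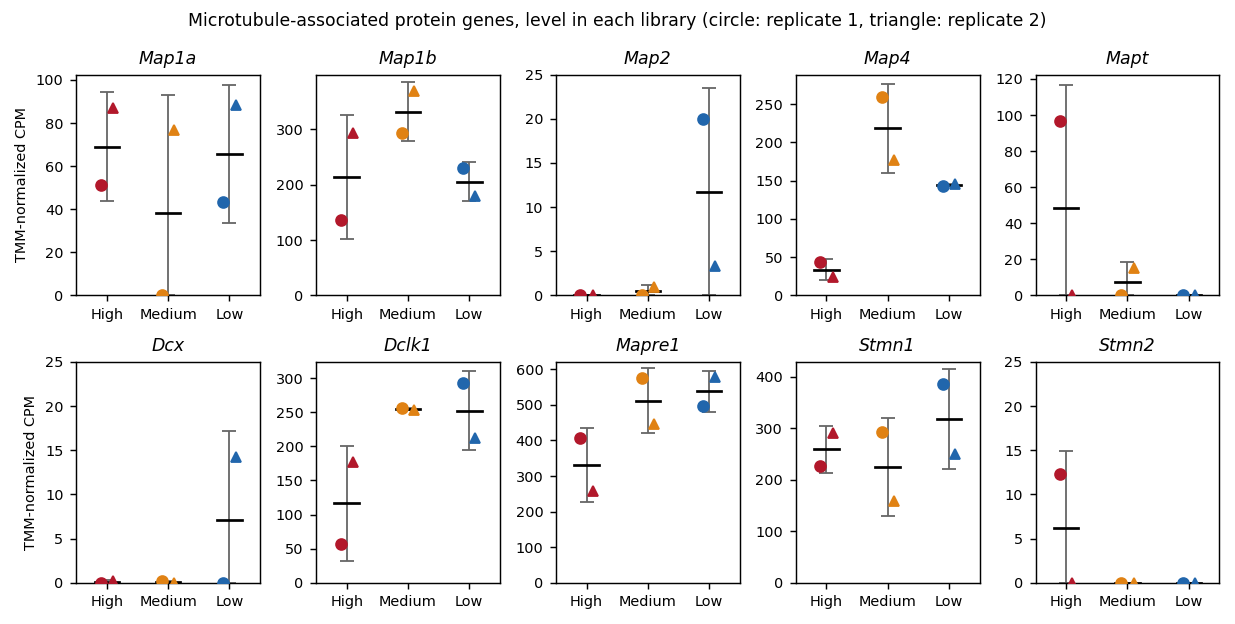
TMM-normalized CPM (y axis, from 0, a scale for each gene) of the 10 members in the “High”, “Medium” and “Low” libraries. Circles are replicate 1 and triangles replicate 2, black lines are group means, and grey bars show 1 SD (n = 2, the lower end stopped at 0). In Map4, Dclk1 and Mapre1 the 4 “Medium” and “Low” points lie above both “High” points, while Map2, Mapt, Dcx and Stmn2 have points above 0 in 3, 2, 3 and 1 of the 6 libraries.

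Map4 encodes the structural protein of most non-neuronal and dividing cells, a relative of Map2 and tau with a similar microtubule-binding repeat region. It gave 210 and 99 counts on “High” films, 1509 and 1082 on “Medium” films and 987 and 865 on “Low” films. The levels were 43.3 and 23.6 CPM for “High”, 259 and 177 CPM for “Medium” and 143 and 145 CPM for “Low”. The groups did not overlap, and the lowest of the 4 “Medium” and “Low” libraries stood 3.31-fold above the higher “High” library. The means were 33.4 ± 13.9 CPM (SD, n = 2) in “High”, 218 ± 57.6 CPM in “Medium” and 144 ± 1.55 CPM in “Low”, so that “Medium” was 6.53-fold and “Low” 4.31-fold above “High”.

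Taking “Medium” and “Low” films as a mean against “High”, the log2 fold change of Map4 was 2.40 (standard error 0.655, 95% interval 0.94 to 3.87, unadjusted p = 0.00434, adjusted p = 0.500, by the quasi-likelihood test of edgeR), and it was rank 66 of 7729 genes by p. For “Low” against “High” it was 2.11 (0.56 to 3.66, adjusted p = 0.899) and for “Medium” against “High” 2.71 (1.12 to 4.29, adjusted p = 0.530), 2 comparisons that use the same “High” libraries. “Low” and “Medium” were not distinguished, with a log2 fold change of −0.60 (−2.09 to 0.89, adjusted p = 1). With DESeq2 in place of edgeR, Map4 passed for the mean of both films (adjusted p = 6.66e-05), for “Low” (0.00869) and for “Medium” (1e-04). DESeq2 called 4.54%, 3.77% and 3.97% of all genes in these comparisons, against 0.129%, 0.0518% and 0.0129% with edgeR. Over 20 alternatives the log2 fold change ran from 2.03 to 2.91 with adjusted p from 6.66e-05 to 1, and the unadjusted p was under 0.05 in 19 of them. Without the ribosomal RNA rows it was 2.40. The higher progenitor and neuronal marker sums on “Medium” and “Low”, the neuronal one mostly from Elavl4 and Gap43, moved with Map4. So did Sox9 of the astrocyte list. The oligodendrocyte sum was higher too, though in “Medium” replicate 1 it lay above both “High” libraries only through Mog, found in no other library. The part of these markers in the difference of Map4 was not tested. Map4 was among the genes that the study itself picked on these libraries, so its direction is not independent evidence.

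Dclk1 encodes a protein kinase that carries the same tandem doublecortin domains as Dcx and is active in radial glia and young neurons. It gave 278 and 740 counts on “High” films, 1490 and 1545 on “Medium” films and 2024 and 1262 on “Low” films, which are 57.3 and 176 CPM, 256 and 253 CPM, and 293 and 212 CPM. The “Medium” libraries were nearly equal, while the “High” libraries differed 3.08-fold, the widest ratio between replicates of “High” among the members with more than 3 counts in both. The lowest of the 4 other libraries was 1.20-fold above the upper “High” library. Group means were 117 ± 84.3 CPM (SD, n = 2), 255 ± 1.64 CPM and 252 ± 57.6 CPM in “High”, “Medium” and “Low”. The log2 fold change was 1.12 for both films against “High” (standard error 0.538, 95% interval −0.08 to 2.32, unadjusted p = 0.0647, adjusted p = 0.801, edgeR), 1.11 for “Low” and 1.12 for “Medium”. It depended on the “High” libraries, since it was 0.52 without “High” replicate 1 and 2.15 without “High” replicate 2.

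Mapre1 encodes EB1, the end-binding protein that tracks growing plus ends and recruits other proteins there. It gave 1970 and 1085 counts on “High” films, 3355 and 2728 on “Medium” films and 3424 and 3451 on “Low” films, or 406 and 259 CPM, 576 and 447 CPM, and 496 and 579 CPM. The “Medium” and “Low” libraries overlapped each other and lay above both “High” libraries, by 1.10-fold between the nearest libraries of “High” and “Medium”. The means were 332 ± 104 CPM (SD, n = 2), 512 ± 90.8 CPM and 538 ± 58.8 CPM. The log2 fold change was 0.66 for both films against “High” (standard error 0.309, 95% interval −0.03 to 1.35, unadjusted p = 0.0593, adjusted p = 0.801, edgeR), 0.69 for “Low” and 0.62 for “Medium”, and its interval between “Low” and “Medium” was −0.70 to 0.84. It was 1.02 without “High” replicate 1 and 0.37 without “High” replicate 2, the opposite order to Dclk1.

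In an exact permutation test, the two-sided p was taken as 2 times the smaller p of either direction. Its smallest value is then 0.133 with 4 libraries against 2, and 0.333 with 2 against 2. Map4, Dclk1 and Mapre1 each had 0.133, which the full separation of their libraries gives by itself. Of the 8 members tested, 3 (37.5%) had the 4 libraries above both “High” libraries and 0 had them below, where 8.06% of the 7729 genes tested lay above and 10.1% below. In the other lists of microtubule genes described further on, 0 of 14 other structural proteins lay above and 3 below, 0 of 19 plus-end and minus-end proteins above and 2 below, and 0 of 16 severing enzymes and regulators above or below. Both “Low” libraries exceeded both “High” libraries in 4 members (Map2, Map4, Dclk1 and Mapre1) against 19.4% of all genes, and both “Medium” libraries did so in 4 (Map1b, Map4, Dclk1 and Mapre1) against 16.2%. Both “Low” libraries exceeded both “Medium” libraries in 1 member (Map2) against 16.3%. Map2 passed the filter on low counts through its “Low” libraries alone, so its place in both “Low” counts was set by the filter. Likewise Map7d3, among the 3 structural proteins below, passed through its “High” libraries alone. These shares describe a list whose members were selected with results known, and no test was made of them.

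**Figure D2:**
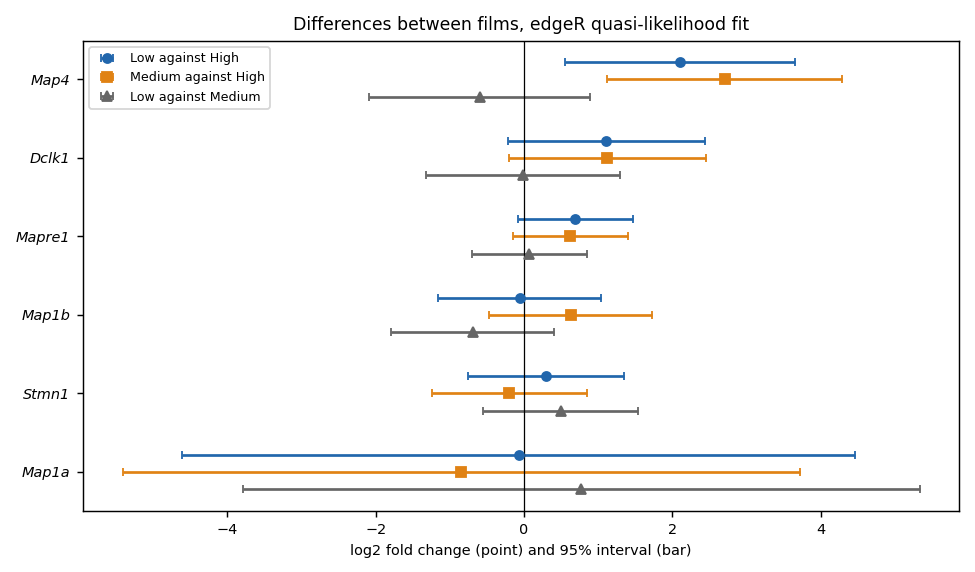
Log2 fold change (x axis) with its 95% interval from edgeR's fit for 6 members (rows) in the 3 comparisons of films. In Map4 the intervals of “Low” and “Medium” against “High” lie above 0, from 0.56 and 1.12 upwards. Every other interval crosses 0. Map2 and Mapt are left out because their fitted values depend on libraries at 0.

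Map1b encodes the large structural protein of growing axons, which appears early in neuronal development. It gave 657 and 1227 counts on “High” films, 1712 and 2249 on “Medium” films and 1592 and 1073 on “Low” films, or 135 and 293 CPM, 294 and 369 CPM, and 231 and 180 CPM. Both “Low” libraries lay between the “High” libraries, and the lower “Medium” library was about level with the upper “High” library. The means were 214 ± 111 CPM (SD, n = 2), 331 ± 53.1 CPM and 205 ± 35.7 CPM, with log2 fold changes of 0.63 for “Medium” (95% interval −0.47 to 1.73), −0.06 for “Low” (−1.15 to 1.04) and 0.29 for both against “High” (adjusted p = 1, edgeR).

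Map1a encodes the related protein that accompanies mature axons and dendrites. It gave 249 and 364 counts on “High” films, 0 and 469 on “Medium” films and 298 and 526 on “Low” films, or 51.3 and 86.8 CPM, 0 and 76.9 CPM, and 43.2 and 88.3 CPM. The “High” and “Low” libraries overlapped over nearly the whole range, and “Medium” replicate 1 alone was at 0. In that library 3 counts correspond to 0.515 CPM. The log2 fold change of both films against “High” was −0.46 with an interval of −4.32 to 3.41 (adjusted p = 1, edgeR). When “Medium” replicate 2 was left out and the filter on low counts was set again, Map1a passed an adjusted p of 0.05 for “Medium” against “High” and for “Low” against “Medium”, with a “Medium” group that was then the single library at 0.

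Stmn1 encodes stathmin, which binds tubulin dimers and is abundant in dividing progenitors. It gave 1098 and 1222 counts on “High” films, 1706 and 966 on “Medium” films and 2668 and 1485 on “Low” films, or 226 and 291 CPM, 293 and 158 CPM, and 387 and 249 CPM. The 3 groups overlapped, with the lowest value in “Medium” and the highest in “Low”. The means were 259 ± 46.2 CPM (SD, n = 2), 226 ± 95 CPM and 318 ± 97.1 CPM. The log2 fold change of both films against “High” was 0.05 with an interval of −0.86 to 0.96 (adjusted p = 1, edgeR), and its sign changed under several alternatives.

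The remaining members had few counts. Map2, the protein of dendrites and the usual stain for neurons, gave no count on “High” films, 0 and 6 counts on “Medium” films and 138 and 20 on “Low” films. These are 0.984 CPM in “Medium” replicate 2 and 20.0 and 3.36 CPM in “Low”, a 5.96-fold gap between the “Low” replicates. Map2 passed the filter on low counts through its “Low” libraries alone, which set its direction. Against a floor of 3 counts in each “High” library, Map2 was at least 17.5-fold higher as a mean of the “Low” libraries. That floor covers counting error only and not the spread between libraries. The bound was 5.03-fold without “Low” replicate 1 and 30-fold without “Low” replicate 2. Its adjusted p for “Low” against “High” was 0.899 (edgeR).

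Mapt encodes tau, the structural protein of axons. It gave 469 and 0 counts on “High” films, 0 and 94 on “Medium” films and none on “Low” films, which are 96.6 and 15.4 CPM in the 2 libraries that held it. Its group means were thus each set by 1 library, 48.3 ± 68.3 CPM (SD, n = 2) in “High” and 7.71 ± 10.9 CPM in “Medium”. For both films against “High” its adjusted p was 0.801 with edgeR and 0.00512 with DESeq2. The edgeR value depended on “High” replicate 1, since without that library the fitted log2 fold change was 4.24 in place of −6.87. DESeq2 was not run without that library for both films. It also called Mapt for “Low” against “High”, where “High” replicate 1 alone held a count. The same was so for “Low” against “Medium”, where “Medium” replicate 2 alone held a count. Each of these calls thus rests on a single library.

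Dcx, the protein of migrating young neurons, and Stmn2, the stathmin of growth cones, did not pass the filter on low counts and were not tested. Dcx gave 0 and 1 counts on “High” films, 1 and 0 on “Medium” films and 0 and 85 on “Low” films, so that its level of 14.3 CPM came from “Low” replicate 2. Stmn2 had 60 counts (12.4 CPM) in “High” replicate 1 and none elsewhere. A library at 0 can hold up to 3 counts by chance, a floor of 0.435 to 0.716 CPM in these libraries. The 4 neuronal members Map2, Mapt, Dcx and Stmn2 did not point to the same library, as Map2 was highest in “Low” replicate 1, Dcx in “Low” replicate 2, and Mapt and Stmn2 in “High” replicate 1.

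Over the 8 members tested, the median log2 fold change of both films against “High” was 0.47, beside −0.12 over all 7729 genes, with 6 members above 0 and 2 below where 45.9% of all genes lay above 0. With every library raised to 3 counts, which keeps zeros from setting the value, the medians were 0.53 and −0.17. In the edgeR test 0 of the 8 members passed an adjusted p of 0.05 where 0.129% of all genes did, and 1 (Map4) had an unadjusted p under 0.05 with a higher level, beside 2.69% of all genes, while 0 had one with a lower level, beside 2.81%. For “Low” against “High” the median was 0.50 beside 0.02, with 5 of 8 members above 0 (50.5% of all genes) and 0 called (0.0518%). Map4 alone had an unadjusted p under 0.05 there, 1 member higher (2.56% of all genes) and 0 lower (1.71%). For “Medium” against “High” the median was 0.63 beside −0.06, with 5 above 0 (47.6%), 0 called (0.0129%), Map4 alone higher at an unadjusted p under 0.05 (2.39%) and 0 lower (1.64%). For “Low” against “Medium” it was 0.03 beside 0.07, with 4 above 0 (52.6%), 0 called (0%) and 0 members at an unadjusted p under 0.05, higher (0.725%) or lower (0.789%). In these tallies Map2 had passed the filter on low counts through its “Low” libraries alone. Its place above 0 for both films and for “Low”, against “High” or “Medium”, was therefore set by the filter. DESeq2 called 2 members (Map4 and Mapt) for both films and for “Low”, 1 (Map4) for “Medium”, and 1 (Mapt) for “Low” against “Medium”. Without TMM factors, scaled by library size only, the median of all genes moved up by 0.38, and the log2 fold changes of Map4, Dclk1 and Mapre1 became 2.78, 1.56 and 1.04.

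**Figure D3:**
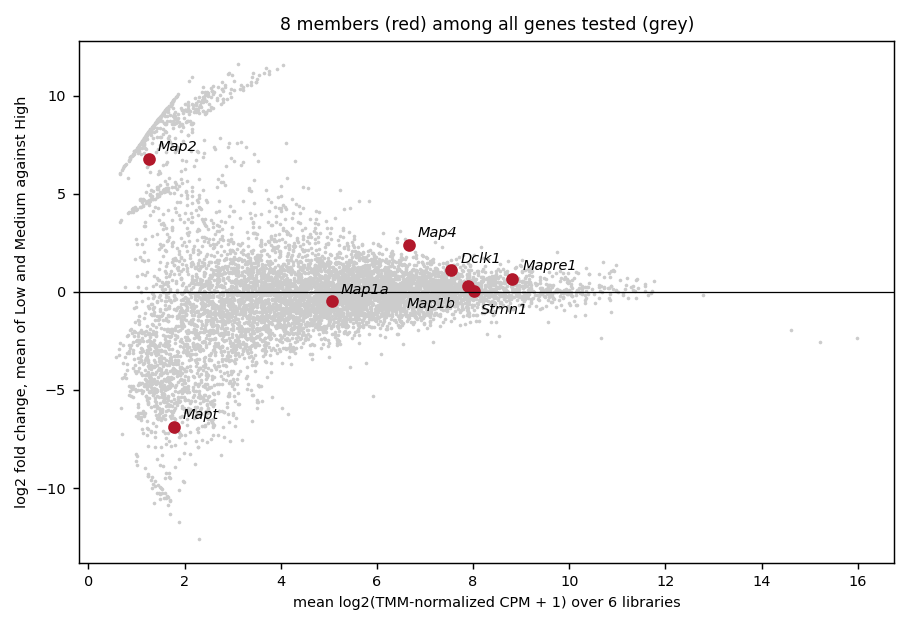
Log2 fold change of “Medium” and “Low” films as a mean against “High” (y axis) against the mean log2(CPM + 1) over the 6 libraries (x axis) for the 7729 genes tested (grey) and the 8 members tested (red). Map4 lies near the upper edge of the genes of its level at 2.40, and Map1b and Stmn1 lie near 0. Map2 and Mapt lie among low genes whose fitted values depend on libraries at 0.

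Replicates of the members with more than 3 counts in both libraries of a film differed by a median of 1.76-fold in “High” (6 members), 1.29-fold in “Medium” (5 members) and 1.38-fold in “Low” (7 members). Over all genes tested under the same condition the medians were 1.70-fold, 1.87-fold and 1.74-fold. The biological coefficient of variation in the fit was 0.376 for Mapre1, 0.457 for Stmn1, 0.472 for Map1b, 0.531 for Dclk1 and 0.600 for Map4, and 1.33 for Map1a, 2.26 for Map2 and 2.37 for Mapt, around a common value of 1.43. The 5 members with a count in every library were thus less variable than that value, and the 3 with libraries at 0 lay near or above it.

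Among other structural microtubule-associated proteins, 14 of 27 listed genes were tested for both films against “High”, and 0 passed an adjusted p of 0.05, with 9 above 0, 5 below and a median log2 fold change of 0.32. Only Map7d3, a relative of the kinesin-recruiting protein Map7, had an unadjusted p under 0.05 (0.0359, adjusted p = 0.801, edgeR). It had 112 and 26 counts in “High” and 0 in the other 4 libraries, at least 30.1-fold lower on both films together (12.8-fold without “High” replicate 1 and 47.5-fold without “High” replicate 2). Map7d3 thus passed the filter on low counts through “High” alone, so its lower direction was set by the filter. Prc1, which bundles antiparallel microtubules of the spindle midzone, was at 195 and 254 CPM in “High”, 135 and 86.4 CPM in “Medium”, and 113 and 40.4 CPM in “Low”. The 4 “Medium” and “Low” libraries lay below both “High” libraries and overlapped each other, and the log2 fold change was −1.28 (standard error 0.592, unadjusted p = 0.0553, adjusted p = 0.801, edgeR). Mtus1, a microtubule-binding tumour suppressor, ranged from 17.3 and 94.5 CPM in “High” over 94.6 and 144 CPM in “Medium” to 178 and 89.1 CPM in “Low”, with a log2 fold change of 1.18 (adjusted p = 0.835).

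Among proteins of the plus and minus ends, 19 of 27 listed genes were tested, and 0 passed an adjusted p of 0.05 and 0 an unadjusted p of 0.05, with 10 above 0, 9 below and a median of 0.28. Nav2, a plus-end protein of neurite growth, had 0 counts in both “High” libraries and in “Medium” replicate 1, and 242, 88 and 86 counts in the remaining 3, at least 25.1-fold higher on both films together, and 10.2-fold without “Medium” replicate 2. Nav2 passed the filter on low counts through “Medium” and “Low” libraries alone, which set its direction. Tacc1, which belongs to a family of proteins that act with the polymerase Ckap5, gave 698 and 639 counts on “High” films, 0 and 122 on “Medium” films and 1 and 442 on “Low” films. All 4 “Medium” and “Low” libraries of Tacc1 lay below “High” (144 and 152 CPM, against 0 to 74.2 CPM), with an adjusted p of 0.801 (edgeR). Clip1, the plus-end linker CLIP-170, had 53 and 129 counts in “High”, 107 in “Medium” replicate 2 and 0 in the other 3. Tacc1 passed an adjusted p of 0.05 in 2 of the fits with a library left out and the filter set again, namely without “Medium” replicate 2 (0.0280) and without “Low” replicate 2 (0.0312).

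Of 28 severing enzymes and regulators of these proteins, among them katanins, Gsk3b, Cdk5 and the Mark kinases, 16 were tested, and 0 passed an adjusted p of 0.05 and 0 an unadjusted p of 0.05 in edgeR's test, with 10 above 0, 6 below and a median of 0.20. The smallest p belonged to Mark4, a kinase that releases tau and Map4 from microtubules, with 14 counts in “Medium” replicate 2, 89 in “Low” replicate 1 and 0 in the other 4 libraries. Katnal1, a katanin-like severing enzyme, had 323 counts in “Medium” replicate 1, 12 in “Low” replicate 1 and 0 elsewhere. Mark4 and Katnal1 passed the filter on low counts through “Medium” and “Low” libraries alone, which set their direction. Nde1, a dynein regulator, had 16 counts in “High” replicate 2, 8 and 454 in “Medium”, and 0 and 153 in “Low”. DESeq2 called 0 genes of these 3 lists for both films against “High”, the only comparison in which its calls were counted for them.

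**Figure D4:**
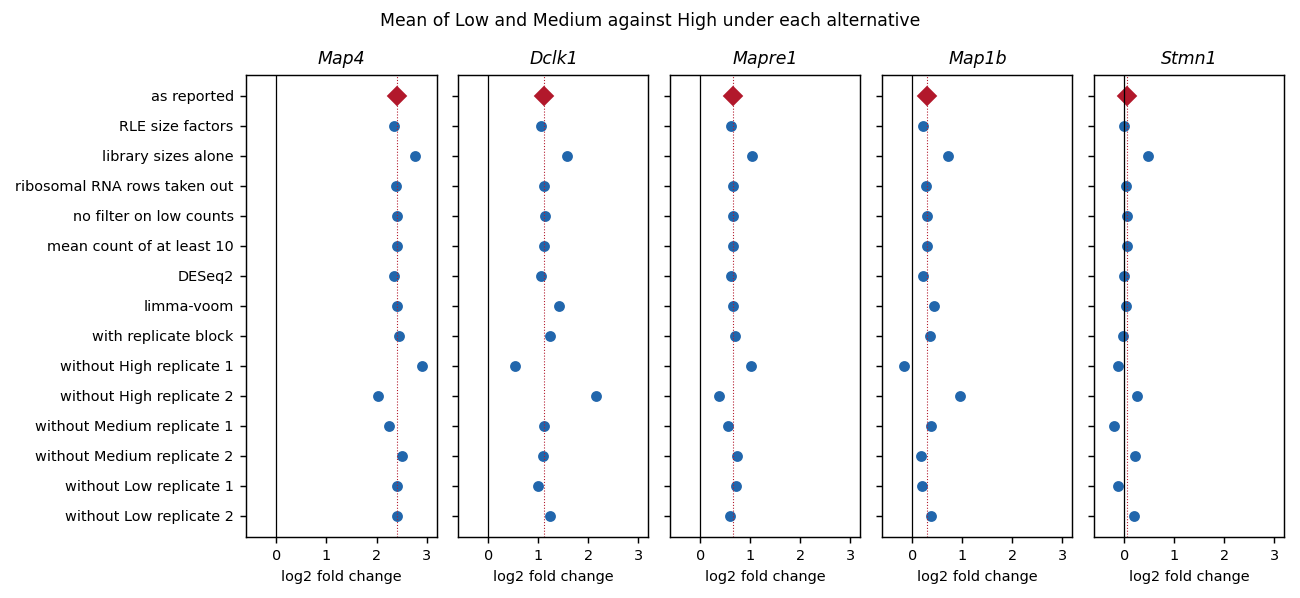
Log2 fold change of “Medium” and “Low” films as a mean against “High” (x axis) for 5 members with a count in every library, as reported (red diamond) and under each of 14 alternatives (blue circles, rows). Map4 stays above 2, Dclk1 and Mapre1 stay above 0, and Map1b and Stmn1 lie on both sides of 0.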

How the data were processed

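RNA was measured in 6 libraries, whose film and replicate were read from their titles. After QuantSeq 3′ preparation the authors used Bowtie2 on the single-end reads, with rn6 as the build per the submitters' processing notes, and took counts from unique and multiple alignments with bedtools; versions and annotation are not given in the sources used here. They deposited whole-number counts, 1 table per library, without normalization. Counting is not stated to use strand, and reads shared between near-identical genes can reach several rows, of which 167 repeat a symbol.

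From these counts, edgeR 4.0.16 (R 4.3.3) filtered rows with filterByExpr (7729 left), applied TMM and fitted 1 quasi-likelihood model of 3 group means (common dispersion 2.04, 3 residual degrees of freedom). P-values were adjusted by Benjamini-Hochberg over all genes tested, with a threshold of 0.05. Standard errors are the log2 fold change over the square root of F. The fit was also run on simulated counts in which all genes shared a single dispersion. That run does not cover genes that vary as Map2 and Mapt did. DESeq2 1.42.0 and limma 3.58.1 (voom) served as alternatives, beside other normalizations and filters, fits on fewer libraries and the replicate block. Members and lists were chosen with earlier results of these data known. All members are named, and from each list the 3 genes with the smallest unadjusted p. Bounds without single libraries and the astrocyte sum without Sox9 were added after seeing the data. Genes Kif2c and Slain2 were named after their values were seen. Promoter windows came from RefSeq (GRCr8).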

Additional observations from a re-analysis of the deposited data

How the results depend on the processing

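With DESeq2 the number of members called moved from 0 to 2 for both films against “High” and for “Low” against “High”, and to 1 for “Medium” against “High” and for “Low” against “Medium”, and the cause was not tested. With a library left out and the filter on low counts set again, an alternative chosen after seeing the data, leaving out “Medium” replicate 2 called 1 member (Map1a) for “Medium” against “High” and 1 for “Low” against “Medium”, where the “Medium” group was then 1 library at 0 that is assumed to vary like the others. In the same fits the plus-end and minus-end proteins called rose from 0 to 1 without “High” replicate 1 (Kif2c), to 1 without “Medium” replicate 2 (Tacc1) and to 2 without “Low” replicate 2 (Slain2 and Tacc1). Map4 had an adjusted p of 0.0539 without “Medium” replicate 2 with the filter set again. Its direction, and those of Dclk1 and Mapre1 against “High”, were kept under every alternative run.

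Directions changed in genes near 0 or with libraries at 0. For both films against “High”, the log2 fold change of Stmn1 became −0.0037 with RLE size factors and −0.0037 with DESeq2. For “Low” against “High” that of Map1a became 0.36 and that of Map1b 0.39 with library sizes alone, and Map1b became 0.089 with limma-voom. With library sizes alone Stmn1 became 0.22 for “Medium” against “High”, and Dclk1 became 0.012 for “Low” against “Medium”, and 0.013 without ribosomal RNA rows. Library sizes alone moved the median of all genes by 0.38, 0.40, 0.35 and 0.03 in the 4 comparisons.

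Leaving out 1 library at a time, values for both films against “High” ran from −5.84 to 0.042 for Map1a, −0.17 to 0.95 for Map1b, −11.07 to 4.24 for Mapt, −0.21 to 0.24 for Stmn1 and −1.06 to 10.03 for Nde1. For “Low” against “High” they ran from −0.68 to 0.36 for Map1a, −0.51 to 0.60 for Map1b and −0.055 to 0.58 for Stmn1. For “Medium” against “High” they ran from −11.59 to 0.16 for Map1a, −11.07 to 8.49 for Mapt and −0.71 to 0.15 for Stmn1, and for “Low” against “Medium” from −0.23 to 11.51 for Map1a, −0.27 to 0.20 for Dclk1 and −0.075 to 0.27 for Mapre1. With the filter set again the reversed values for both films were 0.044 for Map1a without “Medium” replicate 1, −0.16 for Map1b and 4.24 for Mapt without “High” replicate 1, −1.06 for Nde1 without “Low” replicate 2, and for Stmn1 −0.12 without “High” replicate 1, −0.20 without “Medium” replicate 1 and −0.13 without “Low” replicate 1. For “Low” against “High” Map1a was then 0.36 and 0.35 and Map1b 0.60 and 0.11, without “High” replicate 2 and without a “Low” library, and Stmn1 −0.055 without “Low” replicate 1. For “Medium” against “High” Map1a was 0.16 and Stmn1 0.15 without a “Medium” library, and Mapt 8.49 without “High” replicate 1. For “Low” against “Medium” Map1a was −0.23, Dclk1 0.0080 and 0.20, and Mapre1 −0.075 and −0.046, each without a “Medium” or “Low” library. Mapt for “Low” against “High” without “High” replicate 1, Map2 for “Medium” against “High” without “Medium” replicate 2 and Mapt for “Low” against “Medium” without “Medium” replicate 2 gave no value, since all libraries compared were at 0.

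Replicate numbers are shared by the 3 films, and the sources describe no pairing by number. Over all genes tested, libraries of the same number did not deviate together (correlations of 0.00655, 0.00342 and 0.00733 between films). Such a correlation cannot exclude a pairing that touches only part of the genes. With the replicate block 0 members were called and the log2 fold change of Map4 was 2.45 (adjusted p = 0.279, edgeR), while 57 genes in all passed in place of 10. Under the block Stmn1 became −0.025 for both films against “High”, Map1b 0.029 for “Low” against “High” and Dclk1 0.016 for “Low” against “Medium”.

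Stmn1 had a biological coefficient of variation of 0.457 in the fit. With 2 libraries a film, its interval still spanned nearly 2 units on the log2 scale, so an adjusted p of 1 does not show that films were alike. Levels at 3 counts or fewer in a library could not be told from 0. Film and ribosomal RNA share moved together and cannot be told apart as sources of difference in libraries of this number.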
